A study of Mus musculus with 10 samples.

Results

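The Gpr genes encode receptors that couple to G proteins and that were numbered as they were cloned, before their ligands were known. The 55 Gpr genes described here were taken from the platform annotation: every probe set with exactly 1 symbol made of Gpr and a number was kept, Gpr50 was left out, and each gene was represented by its brightest probe set over the 10 arrays. They are 55 of 18193 named genes tested, and 19 of them had more than 1 probe set. Expression was measured on arrays in epididymal white adipose tissue (eWAT), the fat pad beside the epididymis, of male C57BL/6J mice that entered the study at 8 weeks of age. Of 10 mice, 5 ate a high-fat diet with 60% fat and 5 a normal chow (CRF-1), both for 8 weeks, with 1 array a mouse. The labels name no genetic change in either group.

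Some of these receptors have since been matched to ligands that arise in metabolism: protons, lysophospholipids, oxysterols, fatty acids and products of tryptophan breakdown. Others remain orphans, and a few are proteins of the Golgi or lysosome that carry a Gpr name without being known cell-surface receptors. In fat, receptors for metabolites are found on adipocytes, on endothelium and on the immune cells that enter the tissue in obesity. The name thus joins genes of unlike function.

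All levels below are log2 of the array intensity after quantile normalization, and each difference is the high-fat diet minus chow on that scale, with the standard error (SE) from limma and a p adjusted over all 18193 genes. A level is a property of a probe set and is not compared between genes. The median of all probe sets was 4.49, and a gene with both group means below it is called dim. The array medians ran from 17.9 to 25.0 on the high-fat diet and from 20.2 to 27.4 on chow as deposited intensities; with 5 arrays a group, their number sets how precise a difference can be. The mean of 8 adipocyte markers was 12.32 to 12.68 on the high-fat diet and 10.68 to 12.64 on chow; Lep was higher by 3.66 (adjusted p = 0.00813) and the other 7, Adipoq and Fabp4 among them, did not pass. All 12 macrophage markers were higher on the high-fat diet, with a mean level of 10.25 to 11.01 there and 6.06 to 7.09 on chow. The 6 epithelial markers were all lower, with a mean of 4.23 to 4.86 on the high-fat diet and 7.28 to 10.70 on chow. A list of 12 epididymis and testis genes averaged 4.63 to 5.69 on the high-fat diet and 7.04 to 11.75 on chow, with 4 of the 12 lower. For the actin control probe sets, the signal at the 5' end over that at the 3' end was 0.557 to 0.643 on the high-fat diet and 0.272 to 0.456 on chow. Fewer cells of a type and less RNA per cell cannot be told apart in such whole-tissue RNA, and the part of these shifts in the results below was not tested.

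Of the 55 Gpr genes, 8 were higher on the high-fat diet and 0 were lower in the limma test. Among all genes 12.9% were higher and 13.1% were lower, which makes 25.9% in either direction. The number that rose is therefore near the background, while calls in the other direction were missing here. The Gpr genes were dimmer than most, with 31 of 55 dim, beside 5618 of all 18193 genes. Above the median of all probe sets, 5 of 21 Gpr genes rose and 0 fell. Of all 11799 genes above that median, 2027 rose and 1962 fell. At an unadjusted limma p under 0.05, 10 Gpr genes were higher and 1 was lower. The share of all genes at that cut-off was not taken, so these 2 counts are not read against the background. The 8 genes were the proton sensors Gpr65 and Gpr132, the lipid and metabolite receptors Gpr34, Gpr35, Gpr183 and Gpr18, and Gpr176 and Gpr85, 2 receptors better known from the brain. In each of the 8 all 5 high-fat arrays lay above all 5 chow arrays, as they did for 11.5% of all genes, and 0 of the 55 had the opposite separation, found for 11.0% of all genes (22.5% in either direction). The median difference was 0.26 over the 55 genes and -0.037 over all genes; it was 0.046 and -0.022 on the log2(value + 16) scale, which shrinks differences between low intensities. The same count of 8 rose on that scale, where 13.1% of all genes did. Another scaling moved the split: for intensities as deposited 6 Gpr genes were higher and 0 lower, beside 15.1% and 8.2% of all genes, and after centring every array on its median 12 were higher and 0 lower, beside 24.3% and 7.92%. Without chow arrays 1 and 2, which held the lowest endothelial marker means, 10 Gpr genes were higher and 4 lower, as were 18.5% and 19.8% of all genes. With the epididymis and testis gene mean as a covariate, 3 Gpr genes were higher (3.69% of all genes): Gpr65, Gpr35 and Gpr183. The others kept a positive difference without passing, at 2.31 for Gpr34 (adjusted p = 0.103), 3.48 for Gpr176 (0.0868), 1.47 for Gpr85 (0.235), 1.03 for Gpr18 (0.212) and 1.19 for Gpr132 (0.190).

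**Figure D1:**
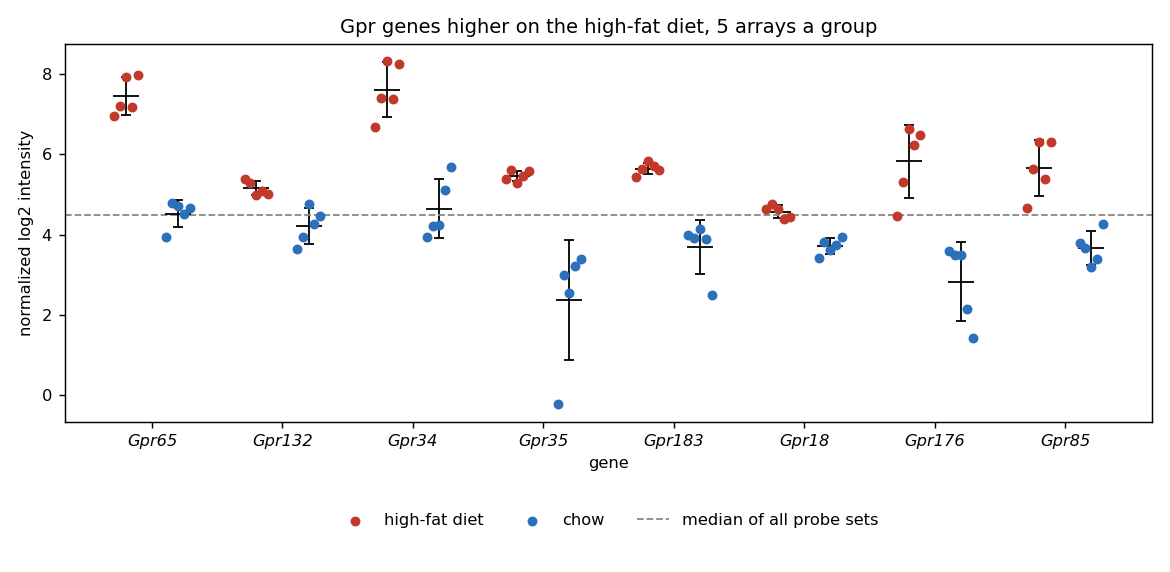
Normalized log2 intensity (y axis) of the 8 Gpr genes that were higher on the high-fat diet (x axis), with 1 point for each array, high-fat diet left and chow right, and the mean ± SD of 5 arrays. In every gene the lowest high-fat array lies above the highest chow array, and Gpr35 has 1 chow array at -0.22, far below the others.

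The upstream sequences of 4 of these genes are shown as 2 pairs. Gpr65 and Gpr35, a proton sensor and a metabolite receptor, stayed past the threshold in every alternative in which they were tested, as Gpr183 did. Gpr18 and Gpr183 lie beside each other on chromosome 14 and both rose. Each sequence is the 250 bases before a RefSeq transcript start, written 5′ to 3′ on the gene's strand, from the GRCm38.p6 build. Capitals mark matches, on either strand, to GAGGAA (an ETS-type site bound by PU.1, a factor of myeloid cells), TGANTCA (an AP-1 site), TTGCNNAA (a C/EBP-type site) or the core of an interferon response element, which is GAAA, any 2 bases and GAAA again.
Gpr65 promoter, chr12:98268385-98268634, plus strand: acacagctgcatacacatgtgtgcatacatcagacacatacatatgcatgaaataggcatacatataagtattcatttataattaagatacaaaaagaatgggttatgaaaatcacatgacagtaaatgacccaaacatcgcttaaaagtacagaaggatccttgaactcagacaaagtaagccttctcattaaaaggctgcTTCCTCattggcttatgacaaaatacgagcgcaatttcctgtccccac
Gpr35 promoter, chr1:92978653-92978902, plus strand: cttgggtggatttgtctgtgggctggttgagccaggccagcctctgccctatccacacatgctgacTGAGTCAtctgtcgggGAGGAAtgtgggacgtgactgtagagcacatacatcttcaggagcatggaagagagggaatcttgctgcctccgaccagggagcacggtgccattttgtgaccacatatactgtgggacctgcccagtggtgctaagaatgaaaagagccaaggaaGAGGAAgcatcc
Gpr18 promoter, chr14:121915889-121916138, minus strand: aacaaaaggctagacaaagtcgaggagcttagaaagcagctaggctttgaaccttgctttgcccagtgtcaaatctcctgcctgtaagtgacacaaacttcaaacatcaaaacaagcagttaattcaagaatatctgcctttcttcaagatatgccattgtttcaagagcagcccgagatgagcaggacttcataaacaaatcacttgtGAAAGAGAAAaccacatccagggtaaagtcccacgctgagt
Gpr183 promoter, chr14:121965194-121965443, minus strand: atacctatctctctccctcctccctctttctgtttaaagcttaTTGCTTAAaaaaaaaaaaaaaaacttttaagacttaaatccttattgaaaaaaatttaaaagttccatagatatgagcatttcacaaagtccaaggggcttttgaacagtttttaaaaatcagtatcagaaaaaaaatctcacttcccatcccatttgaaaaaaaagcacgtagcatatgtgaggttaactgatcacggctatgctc
The Gpr65 window held 1 GAGGAA match, and the Gpr35 window 2 GAGGAA matches and 1 TGANTCA match. Gpr18 had 1 match to the interferon response core and Gpr183 had 1 TTGCNNAA match. The Gpr35 window shown belongs to the second of its 2 annotated starts, and the first held none of the 4 motifs. The windows of Gpr132, Gpr176 and Gpr85, which are not shown, held none of them either. Over the 8 windows found for 7 of the 8 genes, 2 held GAGGAA, against 23.3% of all 32851 windows of this length. The shares of all windows with TGANTCA, TTGCNNAA and the interferon response core were 6.75%, 9.56% and 2.98%, and 1 of the 8 windows held each. Among the 57 windows of 42 Gpr genes, 9, 3, 3 and 3 held the motifs in the same order.

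The proton-sensing receptors respond to acid outside the cell through histidines of their outer face. Of the 3 on the array, 2 rose and 1 did not pass the threshold. Gpr65, a receptor of macrophages and lymphocytes that raises cyclic AMP at low pH, had levels of 6.94, 7.21, 7.93, 7.17 and 7.97 on the high-fat diet, against 3.94, 4.79, 4.70, 4.52 and 4.66 on chow. The groups were far apart, and the chow arrays were all near the median of all probe sets. Gpr65 averaged 7.44 ± 0.47 on the high-fat diet and 4.52 ± 0.34 on chow (SD, n = 5 each) and rose by 2.92 (SE 0.26, limma adjusted p = 3.08e-05), and by 2.28 on the log2(value + 16) scale. Gpr132, a receptor of macrophages and T cells linked to lactate and oxidized fatty acids, had levels of 5.39, 5.27, 4.99, 5.09 and 5.01 on the high-fat diet, against 3.64, 3.93, 4.77, 4.26 and 4.46 on chow. The gap between the groups was small, with chow array 3 close to the high-fat arrays. Gpr132 averaged 5.15 ± 0.17 on the high-fat diet and 4.21 ± 0.44 on chow (SD, n = 5 each) and rose by 0.94 (SE 0.26, limma adjusted p = 0.0225), or 0.57 on the log2(value + 16) scale, and it was the gene just inside the threshold. Its other probe set was dim and differed by -0.41, and with the mean of both the difference was 0.27 (adjusted p = 0.738). On unnormalized intensities it did not pass (adjusted p = 0.0687), nor without high-fat array 1 (0.0562) or 2 (0.0545).

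Gpr4, the proton sensor of endothelium, did not pass the threshold. Its levels were 6.38, 5.99, 5.71, 5.62 and 5.77 on the high-fat diet, against 5.37, 4.63, 7.86, 7.39 and 7.69 on chow. Chow arrays 1 and 2 lay below every high-fat array and chow arrays 3, 4 and 5 above every one. Over all arrays the difference was -0.70 (SE 0.59, limma adjusted p = 0.435). Without chow arrays 1 and 2 Gpr4 fell by 1.78 (SE 0.20, limma adjusted p = 8.45e-05), and with array weights it fell by 1.48 (adjusted p = 0.00423). The fall without chow arrays 1 and 2 follows from the order of the arrays and is no separate support. The mean of 7 endothelial markers was 7.67 and 6.80 in chow arrays 1 and 2, and 9.47, 9.01 and 9.08 in chow arrays 3, 4 and 5.

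The receptors for lipids, metabolites and nucleotides held 4 of the 8 rises among 8 genes, beside 12.9% higher among all genes. Because the role lists were chosen with earlier results of these data known, this count is no test of the role. All 8 differences were positive, with a median of 0.84, or 0.35 on the log2(value + 16) scale, and 4 of the 8 genes were dim. Gpr34, a receptor for lysophosphatidylserine on microglia, mast cells and macrophages, had levels of 6.68, 7.40, 8.31, 7.36 and 8.23 on the high-fat diet, against 3.94, 4.21, 4.24, 5.11 and 5.69 on chow. High-fat arrays 3 and 5 were the highest, and chow arrays 4 and 5 were above the other chow arrays. Gpr34 averaged 7.60 ± 0.68 on the high-fat diet and 4.64 ± 0.73 on chow (SD, n = 5 each) and rose by 2.96 (SE 0.40, limma adjusted p = 0.000442), and by 2.33 on the log2(value + 16) scale. Gpr174, which binds the same lipid on lymphocytes, was dim and differed by 0.33 (SE 0.34, adjusted p = 0.534).

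Gpr183, which guides B cells, T cells and dendritic cells along gradients of an oxysterol, had levels of 5.44, 5.64, 5.82, 5.70 and 5.61 on the high-fat diet, against 3.99, 3.91, 4.14, 3.88 and 2.51 on chow. Chow array 5 was well below the other chow arrays. Gpr183 averaged 5.64 ± 0.14 on the high-fat diet and 3.69 ± 0.67 on chow (SD, n = 5 each) and rose by 1.95 (SE 0.32, limma adjusted p = 0.00145), and by 1.16 on the log2(value + 16) scale. Its other probe set read 5.93, 6.77, 7.12, 6.82 and 7.24 on the high-fat diet, against 1.08, 1.24, 3.03, 3.63 and 1.67 on chow. This probe set was brighter on the high-fat diet but not over all 10 arrays, and it rose by 4.65 (SE 0.51, limma adjusted p over all probe sets = 0.000118). Both probe sets thus rose, by unlike amounts.

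Gpr18, the neighbour of Gpr183 with no other protein-coding start between them, is a receptor of lymphocytes for which a lipid amino acid has been proposed as ligand. Its levels were 4.64, 4.77, 4.63, 4.38 and 4.44 on the high-fat diet, against 3.41, 3.82, 3.63, 3.75 and 3.94 on chow. The levels were low and even within each group. Gpr18 averaged 4.57 ± 0.16 on the high-fat diet and 3.71 ± 0.20 on chow (SD, n = 5 each) and rose by 0.86 (SE 0.24, limma adjusted p = 0.0209), and by 0.45 on the log2(value + 16) scale. On unnormalized intensities it did not pass (adjusted p = 0.0966), nor without high-fat array 2 (0.0529). The mean of 6 T and B cell markers was 2.76 to 3.81 on the high-fat diet and 2.40 to 3.60 on chow, with 2 of the 6 higher, and their part in the rise of Gpr18 was not tested.

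Gpr35, a receptor of gut, immune and fat cells that responds to kynurenic acid, a product of tryptophan, had levels of 5.37, 5.60, 5.29, 5.44 and 5.57 on the high-fat diet, against -0.22, 2.98, 2.55, 3.22 and 3.40 on chow. The high-fat arrays were close together, while the chow arrays were dim and chow array 1 lay near the floor. Gpr35 averaged 5.46 ± 0.13 on the high-fat diet and 2.38 ± 1.49 on chow (SD, n = 5 each) and rose by 3.07 (SE 0.62, limma adjusted p = 0.00438), but by 1.41 on the log2(value + 16) scale (adjusted p = 6.22e-05). Gpr84, a receptor of macrophages and neutrophils for medium-chain fatty acids, had levels of 3.77, 4.37, 1.61, 4.02 and 2.86 on the high-fat diet, against 3.79, 2.73, 1.68, 0.58 and 3.75 on chow. The groups overlapped and the gene was dim in both; the difference was 0.82 (SE 0.73, adjusted p = 0.456). The mean of 4 neutrophil markers was 3.97 to 5.01 on the high-fat diet and 2.41 to 3.17 on chow, with 2 of the 4 higher. Gpr39, a zinc receptor, was also dim and differed by 0.30 (SE 0.47, adjusted p = 0.685). Gpr17, related to nucleotide and leukotriene receptors, was dim, near the floor in both groups, and did not pass.

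The other 2 rises belonged to receptors without an accepted ligand. Gpr176, which sets cyclic AMP in the brain's central clock, had levels of 4.47, 5.32, 6.61, 6.22 and 6.48 on the high-fat diet, against 3.60, 3.49, 3.49, 2.14 and 1.44 on chow. It varied more among the high-fat arrays than the other rising genes, and chow arrays 4 and 5 were the lowest. Gpr176 averaged 5.82 ± 0.91 on the high-fat diet and 2.83 ± 0.98 on chow (SD, n = 5 each) and rose by 2.99 (SE 0.55, limma adjusted p = 0.00279), and by 1.64 on the log2(value + 16) scale. Gpr85, a member of a small receptor family that is highly conserved in the vertebrate brain, had levels of 4.66, 5.64, 6.31, 5.38 and 6.30 on the high-fat diet, against 3.80, 3.68, 3.19, 3.39 and 4.27 on chow. The groups were separate, with high-fat array 1 the closest to chow. Gpr85 averaged 5.66 ± 0.69 on the high-fat diet and 3.67 ± 0.42 on chow (SD, n = 5 each) and rose by 1.99 (SE 0.36, limma adjusted p = 0.00252), and by 1.23 on the log2(value + 16) scale; its second probe set rose by 2.11, and of the remaining pair, which were dim, 1 differed by 1.36 and 1 by -1.41, and neither passed. The other members of that family, Gpr27 and Gpr173, were dim and did not pass.

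The spread within the high-fat group differed among the probe sets that stand for the 8 genes. Gpr34, Gpr65, Gpr85 and Gpr176 spanned 1.63, 1.03, 1.65 and 2.15 over the 5 high-fat arrays, with array 1 lowest and arrays 3 and 5 highest. Gpr18, Gpr35, Gpr132 and Gpr183 spanned only 0.39, 0.32, 0.40 and 0.39. The mean of the 12 macrophage markers in high-fat arrays 1 to 5 was 10.25, 10.58, 10.97, 10.53 and 11.01. It was thus lowest in array 1 and highest in arrays 3 and 5, as in the first 4 genes; this is a description of 5 arrays. The grouping depends on the probe set for Gpr183, whose other probe set spanned 1.31 with array 1 lowest and arrays 3 and 5 highest.

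**Figure D2:**
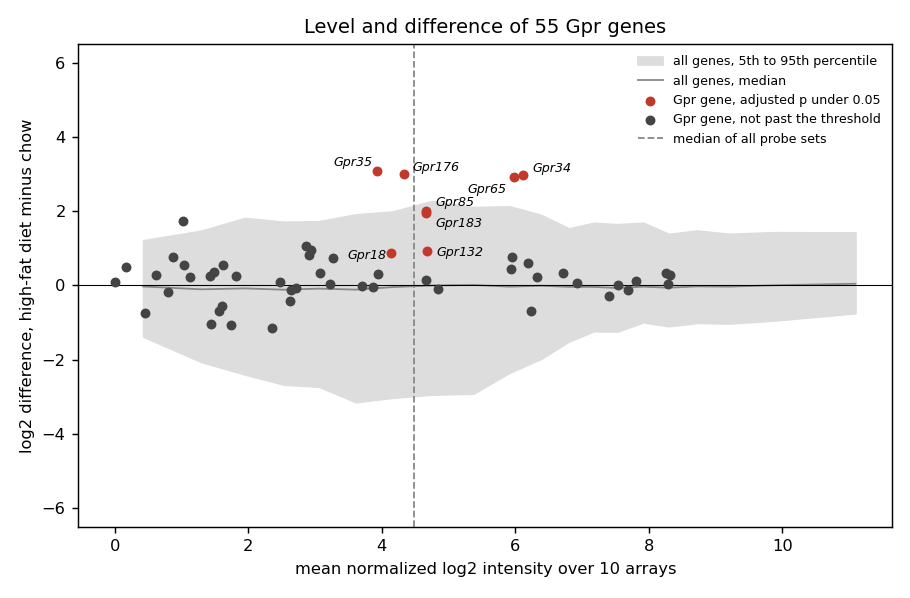
Log2 difference, high-fat diet minus chow (y axis), against the mean normalized log2 intensity over 10 arrays (x axis) for the 55 Gpr genes, with the 5th to 95th percentile of all 18193 genes in 20 equal bins of level as a grey band. Gpr35, Gpr176, Gpr34, Gpr65 and the dim Gpr6 lie above the band, Gpr85 and Gpr183 lie near its upper edge, Gpr18 and Gpr132 lie inside it, and the others lie inside the band or to the left of where it begins.

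The remaining 47 genes did not pass the threshold. Of these, 31 were dim, with 30 positive and 17 negative differences over the 47, from -1.14 to 1.74. The genes just outside the threshold were Gpr45, with a difference of 0.96 (SE 0.39, limma adjusted p = 0.0984), and Gpr153, with 0.61 (SE 0.25, adjusted p = 0.103), both orphans. The other probe set of Gpr45 differed by 2.11, and passed where the probe set was chosen by the mean of the deposited intensities (adjusted p = 0.0479). The largest negative difference was that of Gpr62, a dim orphan, at -1.14 (SE 0.49, adjusted p = 0.114).

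The 16 brighter genes among the 47 gave the tighter limits, with differences from -0.70 to 0.75. The 7 intracellular or otherwise atypical members were mostly of this kind, with 0 called in either direction in the limma test, beside 25.9% of all genes, and differences from -0.43 to 0.34. In so few genes this says nothing particular to the group. Gpr180, a membrane protein tied to TGF-beta signalling in fat cells, differed by 0.28 (SE 0.18, adjusted p = 0.284); after centring arrays on their medians it was higher, by 0.68 (adjusted p = 0.0159). The lysosomal proteins Gpr137 and Gpr155 differed by 0.34 (SE 0.23, adjusted p = 0.306) and 0.12 (SE 0.39, adjusted p = 0.854). Without chow arrays 1 and 2 both were higher, by 0.69 (adjusted p = 0.00479) and 0.73 (adjusted p = 0.00715). In both genes those 2 arrays lay above the other chow arrays. The rise without them follows from that order and is no separate support. The others of this group were the Golgi proteins Gpr107, Gpr108 and Gpr89, and Gpr143 of pigment granules, which was dim.

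On the probe sets that stand for them, Gpr146, Gpr160 and Gpr182 showed the pattern described for Gpr4. Chow arrays 1 and 2 lay below and chow arrays 3, 4 and 5 above every high-fat array. These were the 4 of the 55 genes with that pattern. Chow arrays 1 and 2 lay below the other chow arrays in 11 Gpr genes and above them in 12, Gpr137 and Gpr155 among the 12. The shares of all genes with these patterns were not taken. The counts are therefore not read as particular to the Gpr genes. Gpr160, an orphan, had levels of 8.19, 8.52, 8.15, 8.49 and 8.18 on the high-fat diet, against 6.95, 7.41, 9.11, 8.91 and 8.97 on chow. Gpr182, a receptor of lymphatic and sinusoidal endothelium that takes up chemokines, had levels of 7.12, 7.07, 6.68, 7.26 and 6.67 on the high-fat diet, against 6.32, 5.58, 7.44, 7.35 and 7.76 on chow. High-fat arrays varied little for either gene beside the spread of the chow arrays.

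Gpr146, an orphan linked to cholesterol metabolism of the liver, had levels of 8.41, 8.51, 8.25, 8.52 and 8.37 on the high-fat diet, against 7.57, 6.40, 8.53, 8.92 and 9.01 on chow. Its other probe sets did not show the pattern, since in none did chow arrays 3, 4 and 5 all lie above every high-fat array. They differed by 0.48, 1.08 and 0.42 over all arrays, none past the threshold. The values that follow for Gpr146 hold for the probe set used. Over all arrays Gpr160, Gpr182 and Gpr146 differed by 0.037 (SE 0.40, limma adjusted p = 0.959), 0.068 (SE 0.38, adjusted p = 0.918) and 0.32 (SE 0.43, adjusted p = 0.631). Without chow arrays 1 and 2 they fell by 0.70 (SE 0.11, adjusted p = 0.000861), 0.57 (SE 0.17, adjusted p = 0.0248) and 0.41 (SE 0.12, adjusted p = 0.0203), and with Gpr4 they were the 4 genes called lower in that fit. The 4 genes were described for chow arrays 3, 4 and 5 lying above every high-fat array. A fall without chow arrays 1 and 2 follows from that pattern and is no separate support for it. The direction of Gpr160, Gpr182 and the Gpr146 probe set used thus depends on chow arrays 1 and 2. Adipocyte markers had a mean of 11.41 and 10.68 in those arrays and of 12.03, 12.55 and 12.64 in chow arrays 3, 4 and 5, so they were lower in the first 2 as the endothelial markers were. Epithelial markers were highest in chow arrays 1 and 2, at a mean of 10.70 and 10.65, against 8.75, 8.14 and 7.28 in chow arrays 3, 4 and 5. The epididymis and testis list did not split so, at 7.04 and 11.75, against 10.39, 8.29 and 7.83. The actin 5' over 3' signal did, at 0.456 and 0.368, against 0.272, 0.301 and 0.307. That of the Gapdh control probe sets was 0.772 and 0.900, against 0.688, 0.706 and 0.563. The part of these marker lists and of the 5' over 3' signals in the split was not tested.

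**Figure D3:**
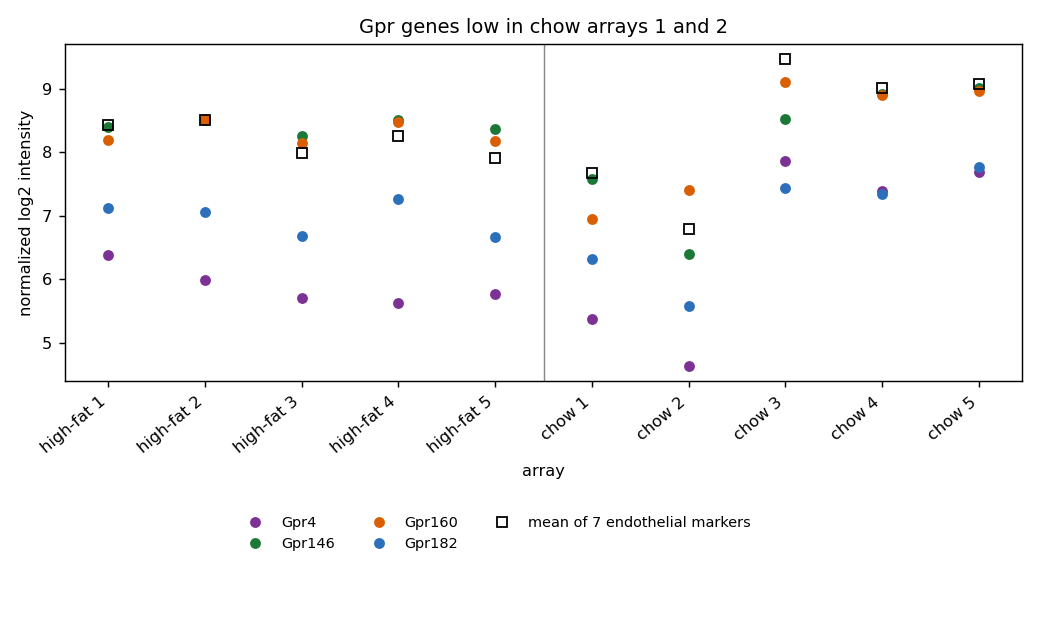
Normalized log2 intensity (y axis) of Gpr4, Gpr146, Gpr160 and Gpr182 and the mean of 7 endothelial markers (open squares) on each array (x axis), high-fat diet left and chow right. All 5 are lower in chow arrays 1 and 2 than in chow arrays 3 to 5, and the endothelial mean runs from 6.80 to 9.47 over the chow arrays.

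Gpr1, a receptor that binds the adipokine chemerin, had levels of 6.11, 6.57, 6.23, 6.58 and 6.15 on the high-fat diet, against 5.49, 4.28, 5.89, 5.78 and 6.44 on chow. Chow array 5 overlapped the high-fat arrays, and the difference of 0.75 did not pass (SE 0.35, limma adjusted p = 0.136). Gpr19, an orphan, was even in both groups and differed by 0.21 (SE 0.15, adjusted p = 0.325). With centred arrays, Gpr1, Gpr19 and Gpr153 also passed, at 0.94 (adjusted p = 0.0471), 0.44 (0.0433) and 0.82 (0.027); the median of all genes was then 0.21.

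The rest were dim or near the median. The 3 leukocyte orphans were dim: Gpr171 differed by 1.05 (SE 0.57, adjusted p = 0.206), and Gpr25 and Gpr33 did not pass. The receptors that raise cyclic AMP without a ligand were dim as well, with Gpr6 at 1.74 (SE 0.84, adjusted p = 0.157) and Gpr12 at -1.04 (SE 0.71, adjusted p = 0.324), and Gpr3 did not pass. On the log2(value + 16) scale the differences of Gpr6 and Gpr12 were only 0.23 and -0.21. The class C orphans Gpr158 and Gpr179, the peptide or protein receptors Gpr15, Gpr37 and Gpr83, and the orphans Gpr20, Gpr22, Gpr26, Gpr61, Gpr63, Gpr75, Gpr101, Gpr149, Gpr151, Gpr152 and Gpr165 were dim and not past the threshold. The orphans Gpr135, Gpr161 and Gpr162 were brighter than that and did not pass either. For the dim genes no detection call was used, so a low intensity does not say whether the transcript was present.

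**Figure D4:**
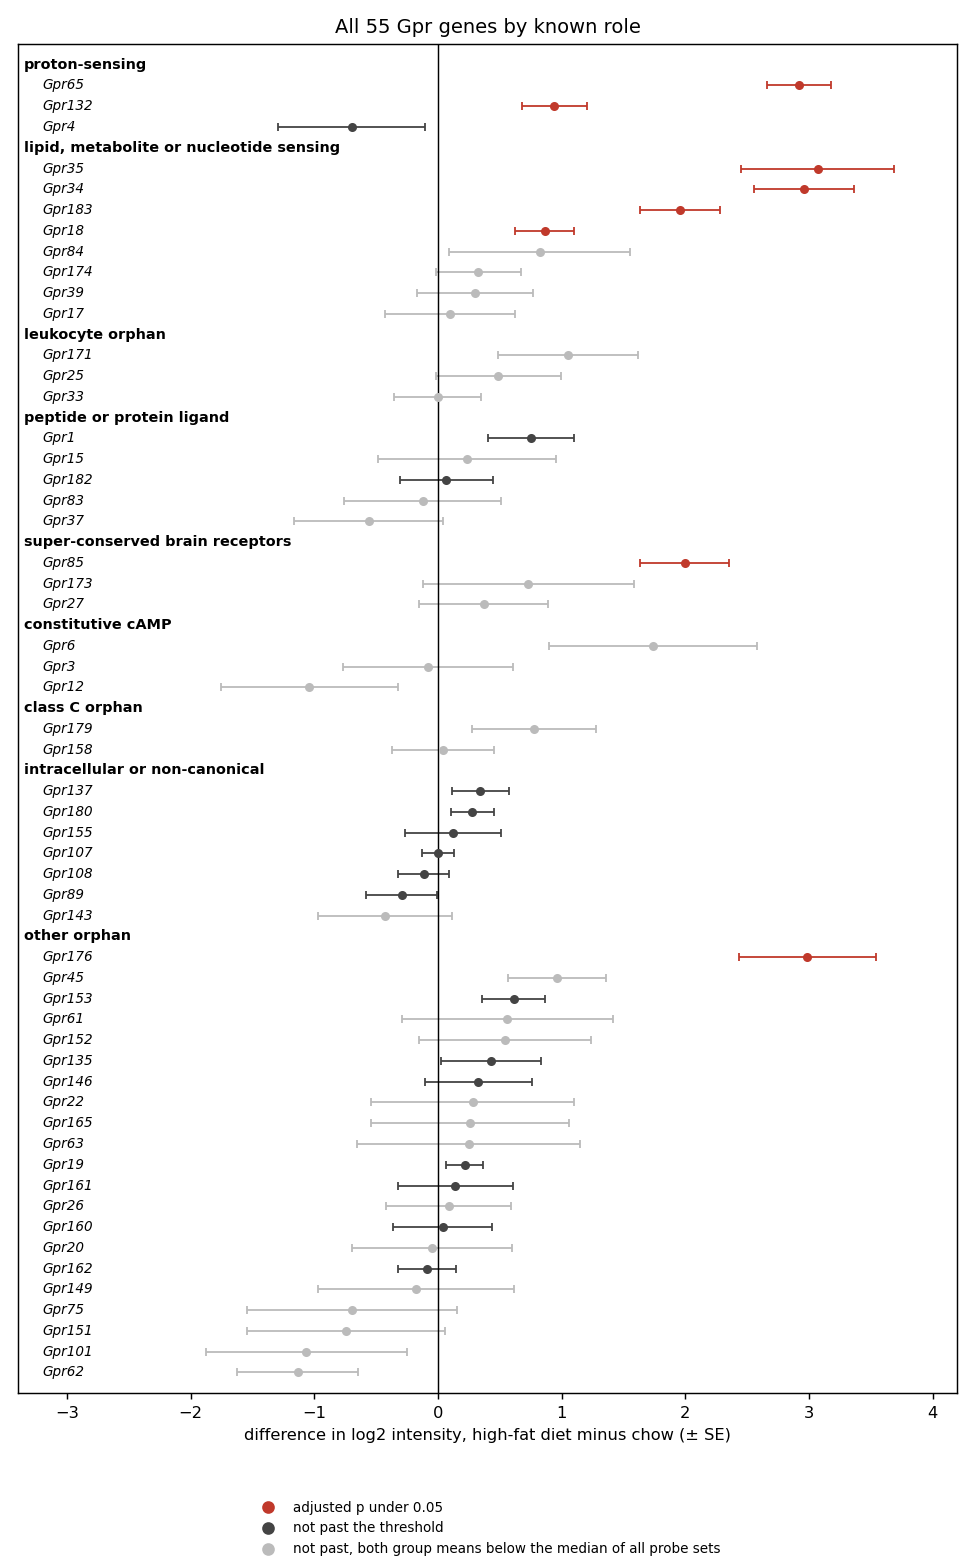
Difference in log2 intensity, high-fat diet minus chow, ± SE (x axis) of all 55 Gpr genes, listed by known role (y axis). The 8 genes past the threshold are red and all positive, from 0.86 to 3.07; 31 of the other 47 are dim and shown in light grey, and the widest SEs, up to 0.90, are among them.

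Receptors of like function that carry other names were read beside the Gpr genes. This list too was chosen with earlier results of these data known, so its counts are a description. Of 32 further receptors for lipids, nucleotides, metabolites and complement fragments on the array, of 40 listed, 15 rose and 0 fell in the limma test, beside 12.9% and 13.1% of all genes, with a median difference of 1.13, or 0.72 on the log2(value + 16) scale. The largest rises were those of C3ar1 and C5ar1, the receptors for complement fragments, at 5.0 (SE 0.38) and 3.77 (SE 0.36), and P2ry6, a receptor for uridine diphosphate, at 4.02 (SE 0.27). These are genes of myeloid cells. Receptors found on adipocytes were also among them: Hcar1, the lactate receptor, rose by 2.58 (SE 0.55, adjusted p = 0.00584), and Hcar2, the receptor for hydroxybutyrate and niacin, by 1.93 (SE 0.57, adjusted p = 0.0285). Ffar2, for short-chain fatty acids, rose by 0.96 (SE 0.31, adjusted p = 0.0406). Sucnr1, for succinate, and Ffar4, for long-chain fatty acids, differed by 1.33 (SE 0.58, adjusted p = 0.118) and -0.55 (SE 0.35, adjusted p = 0.284), neither past the threshold.

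**Figure D5:**
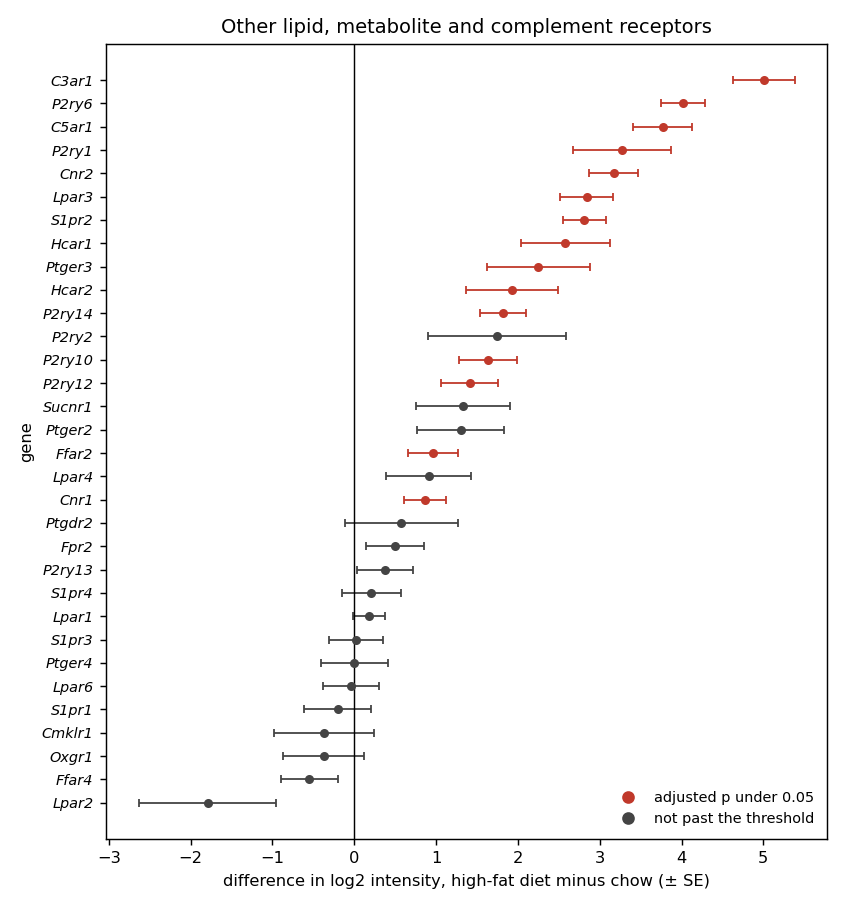
Difference in log2 intensity, high-fat diet minus chow, ± SE (x axis) of 32 receptors for lipids, nucleotides, metabolites and complement fragments that carry other names (y axis), with genes past the threshold in red. The 15 red genes run from 0.87 (Cnr1) to 5.0 (C3ar1), and no gene below 0 passed.

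Enzymes that make or remove ligands of these receptors were called in both directions: of 17 on the array, 2 rose and 5 fell, beside 12.9% and 13.1% of all genes. Ch25h and Cyp7b1, which together make the oxysterol of Gpr183, fell by 2.10 (SE 0.60, limma adjusted p = 0.0248) and 2.0 (SE 0.35, adjusted p = 0.00193), while Gpr183 itself rose. Ido1 and Tdo2, which open the tryptophan ring on the way to the kynurenic acid of Gpr35, fell by 4.37 (SE 1.0, adjusted p = 0.00875) and 3.30 (SE 1.02, adjusted p = 0.036); Tdo2 did not pass on the log2(value + 16) scale (adjusted p = 0.0504). Pla1a, a phospholipase that yields the lysophosphatidylserine of Gpr34, rose by 1.59 (SE 0.32, adjusted p = 0.00435), and so did Abhd12, which breaks that lipid down, by 1.02 (SE 0.30, adjusted p = 0.0308). Faah also fell, by 2.82 (SE 0.72, limma adjusted p = 0.0151), and the other 10 enzymes did not pass. The epithelial and epididymal genes were lower in the same high-fat arrays, and their part in the 5 falls was not tested.

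The signalling partners are read beside the same 12.9% higher and 13.1% lower of all genes. Of 21 G protein subunits 5 rose and 2 fell, led by Gna15, a subunit of blood cells, at 1.90 (0.95 on the log2(value + 16) scale) and Gng2 at 1.66; Gnaq had a difference of -0.54. Among 16 arrestins, receptor kinases and RGS proteins, which switch receptor signals off, 7 rose and 1 fell. The RGS genes Rgs1, Rgs18 and Rgs10 rose by 5.76 (SE 0.26), 3.38 (SE 0.45) and 3.12 (SE 0.22), and Rgs3 fell by 1.05. Of 16 enzymes of cyclic AMP, 4 rose and 3 fell, with the cyclase Adcy7 at 2.28 (SE 0.24) and the cyclase Adcy8 at -4.68 (SE 0.72). Adcy8 had a mean of 1.58 on the high-fat diet and 6.26 on chow, and its difference was -2.32 on the log2(value + 16) scale. The median differences of the 3 lists were 0.038, 0.53 and 0.19, beside -0.037 for all genes.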

How the data were processed

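Per the labels' protocols, biotin-labelled cRNA was made from the total RNA of each mouse for Affymetrix arrays. The authors deposited linear intensities of 45101 probe sets on 10 arrays; their summary algorithm and scaling were not given in the sources used. Groups and replicate numbers came from the titles.

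Intensities under the 5th percentile of all values (0.658) were set to it, and all were log2 transformed and quantile normalized. By the platform annotation, 34958 probe sets had 1 symbol, 932 had several and 9211 were not listed; 64 control probe sets were left out. The probe set with the highest mean log2 level stood for each of 18193 genes. The groups were compared with limma 3.58.1 in R 4.3.3 (lmFit, eBayes with a trend), with Benjamini-Hochberg adjustment over all genes and a threshold of 0.05. Since each mouse had 1 array, p-values measure the spread between mice. By the rule for naming, every Gpr gene could be named, with values on each array for those past the threshold and above the median of all probe sets, and a gene outside the 55 was named for being among the 3 largest differences past the threshold in either direction of its list. Outside that rule, chosen after their values were seen, are the array values of Gpr18, Gpr35, Gpr176, Gpr4, Gpr146, Gpr160, Gpr182, Gpr1 and Gpr84, and the naming of Hcar1, Hcar2, Ffar2, Cnr1, Sucnr1, Ffar4, Ch25h and Cyp7b1. The members, lists and roles were chosen with earlier results of these data known. Promoters were read from a RefSeq table (GRCm38.p6), which held 42 of the 55 genes.

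The test was also run on data simulated for the high-fat against chow comparison over 18193 genes. It found 48% of 100 log2 changes of 1 and 85% of 100 log2 changes of 2, with 8 false calls among 141. On the arrays themselves 4717 of 18193 genes were called. The share found with that many calls, or among the 31 dim Gpr genes, was not tested. The replicate numbers did not pair the arrays: deviations of same-numbered arrays had correlations from -0.020 to 0.0056. Alternatives changed the scaling, the floor, the log2 offset of 16, the variance prior, array weights, the filter on dim genes, the probe set, the replicate block, a covariate of epididymis and testis genes, and the arrays left out.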

Additional observations from a re-analysis of the deposited data

Results flagged for a closer look

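Of 52 groups of 5 arrays tested for a lone outlying array, over 26 named genes, 6 had one, where chance gives about 1 in 20 groups. Gpr35 stood at -0.22 in chow array 1, against 2.55 to 3.40 in the other chow arrays. Gpr183 stood at 2.51 in chow array 5, against 3.88 to 4.14. Gpr180 stood at 7.52 in chow array 3, against 8.21 to 8.48, and Gpr171 at 0.12 in chow array 4, against 2.52 to 3.37. Gpr6 stood at -0.60 in high-fat array 3, against 2.02 to 2.89 in the other high-fat arrays, and at 2.67 in chow array 5, against -0.60 to -0.11 in the other chow arrays. The values of -0.60 are the floor set on intensities, which narrows the spread of those other chow arrays.

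In 2 genes a probe set that did not stand for the gene also changed past the threshold over all probe sets: that of Gpr183 rose by 4.65 and that of Gpr85 by 2.11.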

How the results depend on the processing

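The 8 higher Gpr genes kept their direction under all of the 24 alternatives in which each was tested. Gpr65, Gpr35 and Gpr183 passed in every alternative in which they were tested. With array weights 11 Gpr genes were higher and 1 was lower. Without chow arrays 1 and 2 together 4 were lower. Among genes above the median of all probe sets 5 of 21 were higher. Gpr18, Gpr35 and Gpr176 were not tested there. In the main fit 2027 of all 11799 genes above that median were higher. With the mean level of epididymis and testis genes as a term, 3 were higher (3.69% of all genes): Gpr65, Gpr35 and Gpr183, the last with adjusted p = 0.0455; Gpr34, Gpr176, Gpr18, Gpr132 and Gpr85 lost their calls. This covariate itself differs between the groups. Leaving out 1 array at a time gave 6 to 9 higher and 0 lower genes. The median difference of all genes moved to 0.21 with each array centred on its median, where 12 Gpr genes and 24.3% of all genes were higher, with Gpr180, Gpr153, Gpr19 and Gpr1 added.

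With the replicate number as a block, which does not pair the mice, 6 Gpr genes were higher and 0 lower. Gpr18 (limma adjusted p = 0.0825) and Gpr132 (adjusted p = 0.0820) lost their calls. No share of all genes is set beside these counts, nor beside those with array weights or with single arrays left out. They are therefore not read against the background.

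Some genes not past the threshold over all arrays changed sign. With array weights Gpr146, Gpr160 and Gpr182 differed by -0.25, -0.48 and -0.40, and without chow arrays 1 and 2 by -0.41, -0.70 and -0.57. With the covariate Gpr146, Gpr1 and Gpr182 differed by -0.78, -0.21 and -0.61. Leaving out 1 array at a time, the difference ran from -0.096 to 0.56 for Gpr146, from -0.30 to 0.25 for Gpr160, from -0.26 to 0.29 for Gpr182, from -0.13 to 0.50 for Gpr155 and from -0.037 to 0.61 for Gpr39. The cause was not tested. Among the 29 Gpr genes not named with a difference, 103 of 673 values changed sign and 0 passed the threshold. Signal over background limits the 31 dim genes.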
